A study of Homo sapiens with 60 samples.

Results

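The genes described here are the 10 cytosolic heat shock chaperones and cochaperones HSPA8, HSPA1A, HSPA1B, HSPH1, HSP90AA1, HSP90AB1, DNAJB1, DNAJA1, CHORDC1 and BAG3. They were taken as the rows of the expression table whose Ensembl identifier carries one of these symbols in GENCODE release 29, which gave 10 of 60675 identifiers. All 10 were among the 16692 genes that passed the filter on low counts, and the lowest count of any of them in any library was 480, for CHORDC1.

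RNA was sequenced from HepG2, a human hepatocellular carcinoma line, after 24 h with a vehicle or with a 70% ethanol extract of a tonifying herbal medicine. The extracts were made from 6 single drugs, Angelicae Gigantis Radix (Angelica below), Paeoniae Radix (Paeonia), Cnidii Rhizoma (Cnidium), Rehmanniae Radix Preparata (Rehmannia), Astragali Radix (Astragalus) and Cinnamomi Cortex (Cinnamon), and from 2 formulas, Sagunja-tang and Samul-tang. Every extract was tested at 3 doses, namely 20, 100 and 500 µg/mL. Together with the vehicle this made 25 groups of 60 libraries: the vehicle (0.1% DMSO) and Cnidium, Rehmannia, Astragalus and Cinnamon had 3 libraries a group, Angelica, Paeonia and Sagunja-tang had 2, and Samul-tang had 1. The sample labels give 0.1% DMSO for the vehicle and no DMSO level for the extracts. The series text gives 2% DMSO and a lower dose series for extracts toxic at 500 µg/mL. The labels give the same 3 doses for every extract. Nothing in the labels says that replicates were separate cultures, so the p-values measure only the spread between these libraries, which may be technical. The vehicle libraries carry a sample code prefix of their own, so that prefix and treatment cannot be told apart in any comparison with vehicle. Doses of one extract share a prefix.

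Cytosolic chaperones hold unfolded or newly made proteins and pass them on for folding. HSP70 proteins bind short exposed stretches of a client in a cycle of ATP hydrolysis that J-domain proteins start and nucleotide exchange factors reset, and HSP90 takes over clients such as kinases and steroid receptors with the help of cochaperones. Heat shock factor 1 (HSF1), held inactive by chaperones in unstressed cells, forms trimers when unfolded protein accumulates and binds heat shock elements, inverted repeats of GAA, in the promoters of many of these genes. Liver cells secrete large amounts of protein and also depend on the chaperones of the endoplasmic reticulum, which a separate stress response controls.

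The promoters were searched on both strands for a heat shock element of 3 alternating units, GAA, TTC and GAA, with NN (any 2 bases) between neighbouring units, since this element is the one sequence feature known to be shared by targets of HSF1. RefSeq gives 15 start site windows for the 10 genes on GRCh38.p14, each from 250 bases before to 50 after the start. An exact match was found in 5 of these 15 windows, one each for HSPA8, HSP90AA1, HSP90AB1, DNAJA1 and CHORDC1, against 0.49% of 35116 windows of all genes. With at most 1 mismatch, 9 of 15 windows matched, belonging to 8 genes, against 6.24% of all windows; HSPA1A, HSPA1B and DNAJB1 joined in this way. The windows of HSPH1 and BAG3 held no match. The windows of HSPA8 (chr11:123062087-123062386, minus strand), HSP90AA1 (chr14:102086995-102087294, minus strand, the start site further into the gene), CHORDC1 (chr11:90223000-90223299, minus strand), HSPH1 (chr13:31162339-31162638, minus strand) and BAG3 (chr10:119651130-119651429, plus strand) are shown 5′ to 3′ because the results at the highest dose turn on these genes. Capitals mark bases that lie in a match with at most 1 mismatch.
HSPA8: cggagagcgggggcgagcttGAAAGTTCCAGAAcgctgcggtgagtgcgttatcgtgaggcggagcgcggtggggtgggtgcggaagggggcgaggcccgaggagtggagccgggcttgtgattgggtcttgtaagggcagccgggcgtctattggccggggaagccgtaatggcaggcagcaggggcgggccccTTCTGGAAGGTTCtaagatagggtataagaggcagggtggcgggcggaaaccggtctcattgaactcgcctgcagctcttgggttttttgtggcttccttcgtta
HSP90AA1: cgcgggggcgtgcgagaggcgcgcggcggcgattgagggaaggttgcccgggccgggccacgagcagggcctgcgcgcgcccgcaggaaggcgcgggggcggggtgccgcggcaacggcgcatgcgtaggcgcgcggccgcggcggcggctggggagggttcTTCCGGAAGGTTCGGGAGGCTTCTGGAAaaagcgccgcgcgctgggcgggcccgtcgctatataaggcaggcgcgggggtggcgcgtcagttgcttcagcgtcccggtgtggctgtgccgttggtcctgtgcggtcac
CHORDC1: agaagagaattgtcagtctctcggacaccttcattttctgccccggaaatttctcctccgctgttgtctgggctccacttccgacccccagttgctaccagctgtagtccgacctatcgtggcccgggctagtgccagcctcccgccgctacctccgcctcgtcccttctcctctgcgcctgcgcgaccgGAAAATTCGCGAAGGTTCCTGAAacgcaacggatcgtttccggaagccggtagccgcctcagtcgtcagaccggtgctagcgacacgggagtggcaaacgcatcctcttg
HSPH1: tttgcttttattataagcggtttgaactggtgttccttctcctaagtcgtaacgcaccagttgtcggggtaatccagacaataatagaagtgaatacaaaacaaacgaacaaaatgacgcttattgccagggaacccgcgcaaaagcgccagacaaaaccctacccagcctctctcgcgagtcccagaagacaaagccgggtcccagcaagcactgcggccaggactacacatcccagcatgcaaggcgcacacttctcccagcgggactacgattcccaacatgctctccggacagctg
BAG3: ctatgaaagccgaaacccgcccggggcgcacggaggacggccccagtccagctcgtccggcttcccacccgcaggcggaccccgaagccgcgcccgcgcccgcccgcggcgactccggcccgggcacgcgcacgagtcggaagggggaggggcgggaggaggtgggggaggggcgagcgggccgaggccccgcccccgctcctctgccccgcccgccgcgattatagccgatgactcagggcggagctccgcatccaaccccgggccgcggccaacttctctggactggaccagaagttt
In HSPA8 the matches lay at -230 to -218 and at -55 to -43, with the start base counted as 0. In HSP90AA1 overlapping matches ran from -88 to -61, and in CHORDC1 they ran from -60 to -38. HSPA1A and HSPA1B held the same bases, GAATATTCCCGAC, at -106 to -94 and at -105 to -93. A match describes these letters only, and the lack of one says only that they are not in this window.

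Summed expected counts ran from 21485882 to 34643028 a library. All 13 hepatocyte markers looked at had a median above 5 CPM (the usual CPM scale of counts relative to library size, with sizes scaled by the trimmed mean of M-values), and 8 of 10 markers of other cell types had a median below 1 CPM; CD68, at a median of 64.4 CPM, was the highest of the latter. The share of counts from mitochondrial genes was 14.2% ± 0.93 in vehicle (SD, n = 3), and in Astragalus it was 16.1% ± 1.36, 19.6% ± 2.57 and 25.8% ± 1.45 at 20, 100 and 500 µg/mL (SD, n = 3 each). Removing mitochondrial genes left the Astragalus values below nearly unchanged, with HSP90AA1 at -2.62 for 500 against 20 µg/mL. In bulk RNA, fewer cells and less RNA per cell cannot be told apart.

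In vehicle, the HSP90 genes stood highest. Per kilobase of merged exons, the summed length of all annotated exons of a gene, HSP90AB1, the HSP90 made constantly, was at 790 ± 19.4 CPM and HSP90AA1, the inducible form, at 304 ± 2.46 CPM (SD, n = 3). HSPA8, the constitutive HSP70, followed at 217 ± 16.7 CPM per kilobase, and DNAJA1, a J-domain partner of HSP70, at 85.1 ± 2.62. DNAJB1, a heat-inducible J-domain protein, was at 35.2 ± 1.68 and overlapped in spread with HSPA1B at 32.7 ± 3.05. HSPA1A, with HSPA1B the stress-inducible HSP70, was at 24.0 ± 2.75. HSPH1, an HSP110 exchange factor for HSP70, at 12.7 ± 0.343, and BAG3, an exchange factor that also links HSP70 to autophagy, at 12.3 ± 0.277 did not differ beyond their spread. CHORDC1, an HSP90-binding cochaperone, was lowest at 4.53 ± 0.149. The lower ranks depend on this length, which was 10655 bases for CHORDC1, 8390 for HSPH1 and 2747 for BAG3 and can exceed that of the transcripts made. Before division by length, BAG3 was lowest, at 33.9 CPM against 48.2 for CHORDC1 and 107 for HSPH1.

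HSPA1A (ENSG00000204389, chr6:31815464-31817946) and HSPA1B (ENSG00000204388, chr6:31827735-31830255) are neighbouring genes with nearly identical coding sequence, and their reads were divided between them by the authors' estimation. Their expected counts were not whole in 59 of 60 libraries each. HSPA1B took 58.0% ± 2.5 of the summed pair in vehicle and between 45.5% and 53.8% in the replicated extract groups. How the pair was divided is therefore uncertain, and the change of the sum is given where either gene's change against vehicle or between 500 and 20 µg/mL is described. HSP90AA1 was also not whole in 55 libraries and HSP90AB1 in 26.

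**Figure D1:**
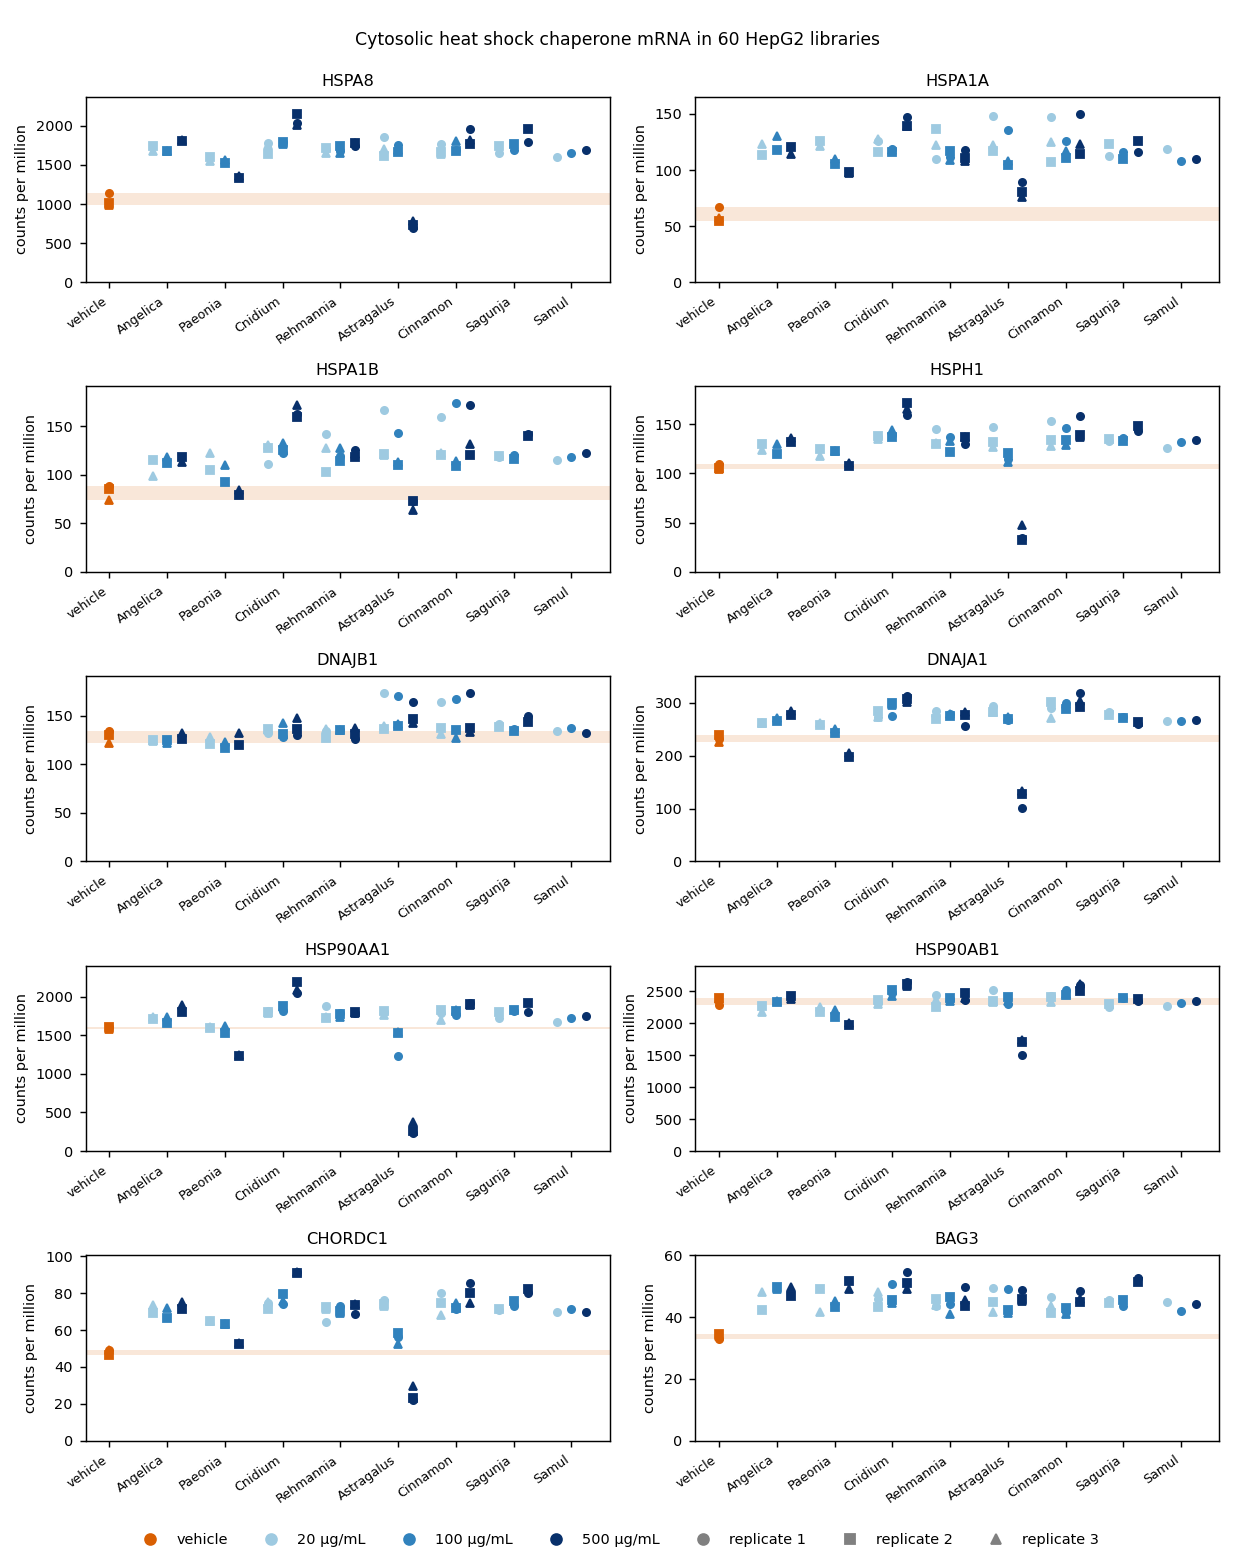
Level of each chaperone gene in each of the 60 libraries, in CPM on a linear axis from 0; each panel is a gene, the horizontal axis holds the vehicle and each extract, orange points and the band are the vehicle libraries and their range, blue shades are doses and the marker shape is the replicate number. The Astragalus libraries at 500 µg/mL were at 231 to 380 CPM for HSP90AA1, where the vehicle libraries were at 1580 to 1604.

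The first question was what the extracts shared at the lowest dose. At 20 µg/mL, 7 of the 10 genes were higher over the 7 replicated extracts than in vehicle and none was lower; of all genes tested, 15.5% were called higher and 16.8% lower (edgeR quasi-likelihood test, Benjamini-Hochberg adjusted p below 0.05). Those called were HSPA8, HSPA1A, HSPA1B, HSPH1, BAG3, DNAJA1 and CHORDC1, while HSP90AA1, HSP90AB1 and DNAJB1 did not pass the test. The median log2 fold change of the 10 genes was 0.36, against -0.01 for all genes. This comparison and all others with vehicle share the same 3 vehicle libraries.

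Among the HSP70s, HSPA8 (ENSG00000109971, chr11:123057489-123063230) was at 1143, 1018 and 992 CPM in vehicle. Over the 18 libraries at 20 µg/mL it ran from 1549 through a median of 1690 to 1855 CPM. All 18 lay above the vehicle libraries, and the log2 fold change was 0.68 ± 0.04 (SE), a 1.61-fold rise (edgeR adjusted p = 3.7e-16). HSPA1A was at 67.3, 54.5 and 56.9 CPM in vehicle and ran from 107 through 123 to 148 CPM at 20 µg/mL. It again stood apart from vehicle in every library, 2.06-fold higher with a log2 fold change of 1.05 ± 0.08 (edgeR adjusted p = 8.09e-13). HSPA1B was at 88.4, 85.0 and 73.7 CPM in vehicle and ran from 99.0 through 121 to 167 CPM at 20 µg/mL. Its groups did not overlap either, and it rose by 0.57 ± 0.11 (edgeR adjusted p = 7.77e-05); the summed pair rose by 0.79 (edgeR adjusted p = 3.55e-09).

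Among the exchange factors, HSPH1 (ENSG00000120694, chr13:31134974-31162388) was at 110, 106 and 105 CPM in vehicle and ran from 118 through 132 to 153 CPM at 20 µg/mL. Every extract library was above vehicle, with a log2 fold change of 0.31 ± 0.06 (edgeR adjusted p = 8.2e-05). BAG3 (ENSG00000151929, chr10:119651370-119677819) was at 33.1, 34.6 and 33.9 CPM in vehicle and ran from 41.4 through 44.9 to 49.4 CPM, again without overlap, a rise of 0.41 ± 0.05 (edgeR adjusted p = 1.57e-07). Of the J-domain proteins, DNAJA1 (ENSG00000086061, chr9:33025211-33039907) rose from 231, 240 and 226 CPM to a range of 258 to 301 with a median of 279, by 0.25 ± 0.04 (edgeR adjusted p = 1.48e-05). DNAJB1 (ENSG00000132002, chr19:14514770-14529770) was at 135, 130 and 122 CPM in vehicle and ran from 121 through 136 to 174 CPM; the groups overlapped, with a log2 fold change of 0.07 ± 0.07 (edgeR adjusted p = 0.468).

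Of the HSP90 group, CHORDC1 (ENSG00000110172, chr11:90201160-90223364) was at 49.2, 46.4 and 49.0 CPM in vehicle and ran from 64.5 through 71.9 to 80.0 CPM at 20 µg/mL. No extract library reached down to vehicle, and the log2 fold change was 0.56 ± 0.05 (edgeR adjusted p = 3.97e-11). HSP90AA1 (ENSG00000080824, chr14:102080738-102139699) was at 1604, 1600 and 1580 CPM in vehicle and between 1599 and 1882 CPM with a median of 1769 at 20 µg/mL. Its groups overlapped at the lower end, and the log2 fold change of 0.13 ± 0.06 did not pass the test (edgeR adjusted p = 0.114). HSP90AB1 (ENSG00000096384, chr6:44246166-44253888) was at 2288, 2396 and 2378 CPM in vehicle and between 2170 and 2518 CPM at 20 µg/mL, on both sides of vehicle, with a log2 fold change of -0.03 ± 0.03 (edgeR adjusted p = 0.523).

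The extracts were then taken one by one at this dose. Against vehicle, the log2 fold change over the 7 extracts ran from 0.58 to 0.72 for HSPA8, from 0.98 to 1.12 for HSPA1A (0.67 to 0.90 for the summed pair), from 0.43 to 0.62 for CHORDC1 and from 0.37 to 0.44 for BAG3. It ran more widely for HSPA1B, from 0.38 to 0.73, HSPH1, from 0.18 to 0.37, and DNAJA1, from 0.16 to 0.31; HSPA1B and HSPH1 were called in 6 of the 7 extracts each. The background differed between extracts, with 5.74% of all genes higher in Cinnamon and 13.7% in Angelica, where 7 and 6 of the 10 genes were higher. In Paeonia 6 were higher beside 9.76% of all genes, and in Cnidium, Rehmannia, Astragalus and Sagunja-tang 7 were, beside 9.08%, 9.78%, 7.03% and 6.4%. No gene of the 10 was called lower than vehicle at 20 µg/mL, where the share of all genes called lower was 13.8% in Angelica, 10.1% in Paeonia and in Rehmannia, 9.18% in Cnidium, 6.14% in Astragalus, 5.07% in Cinnamon and 6.69% in Sagunja-tang. In Samul-tang, with 1 library a dose and no test, HSPA8 was at 1597 CPM and HSPA1A at 119 CPM at 20 µg/mL, above all vehicle libraries.

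**Figure D2:**
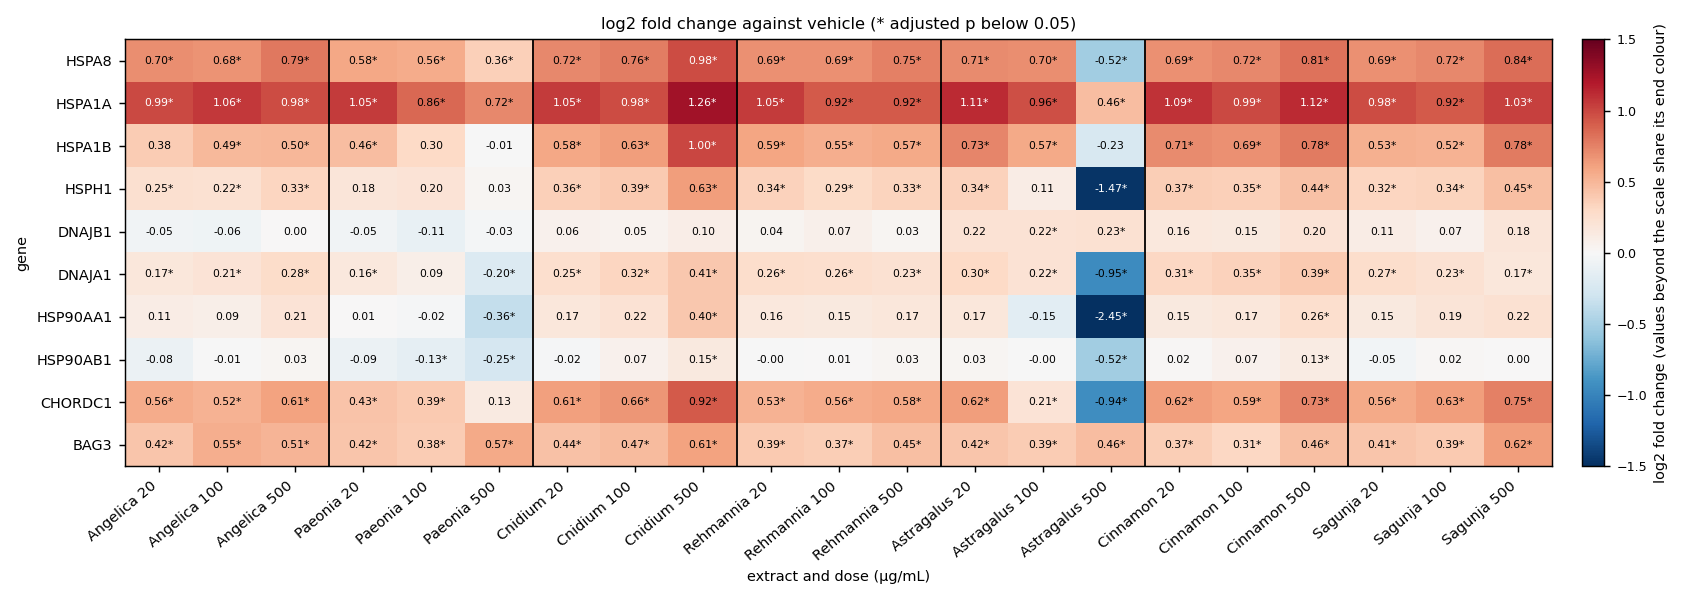
Log2 fold change against vehicle of each chaperone gene (rows) for the 21 doses of replicated extracts (columns), on a colour scale from -1.5 to 1.5; an asterisk marks an edgeR adjusted p below 0.05. The HSPA1A and BAG3 rows were higher in all 21 columns, and the Astragalus 500 µg/mL column held 6 genes lower than vehicle. HSPA1A shares reads with HSPA1B, and their sum was not called in that column.

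With the dose raised to 500 µg/mL, the extracts parted. Against vehicle, 9 of the 10 genes were higher in Cnidium (15.8% of all genes were) and 9 in Cinnamon (7.88%), with DNAJB1 the gene left out in both. In Angelica, Rehmannia and Sagunja-tang 7 were higher, all but DNAJB1 and both HSP90 genes, beside 11.4%, 10.5% and 13.8% of all genes. None of the 10 was called lower in these 5 extracts, where 15% (Cnidium), 6.78% (Cinnamon), 10.9% (Angelica), 9.58% (Rehmannia) and 11.8% (Sagunja-tang) of all genes were. In Paeonia 3 were higher (23.3% of all genes) and 3 lower (23%), and in Astragalus 3 were higher (33.7%) and 6 lower (36.1%). BAG3 and HSPA1A were higher than vehicle in all 7 extracts at 500 µg/mL, BAG3 by 0.45 to 0.62 and HSPA1A by 0.46 to 1.26. These changes are relative to TMM-scaled library sizes, whose factors ran from 0.7844 to 1.1024 over the libraries. The summed HSPA1 pair differed by 0.10 to 1.11 and was called in 6 of the 7, all but Astragalus.

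At 100 µg/mL, 7 of the 10 genes were higher than vehicle in Angelica, Cnidium, Rehmannia, Astragalus, Cinnamon and Sagunja-tang, beside 10.7%, 8.57%, 7.33%, 19.5%, 4.17% and 7.36% of all genes. None of the 10 was called lower there, beside 10.9%, 8.24%, 6.82%, 20%, 3.71% and 7.11% of all genes in the same order. In Paeonia 4 were higher (9.09% of all genes) and 1, HSP90AB1 at -0.13, was lower (9.43%). DNAJB1 took the place of HSPH1 among the 7 in Astragalus, at 0.22 (edgeR adjusted p = 0.0413), a call that was lost without Astragalus replicate 1 (0.12, edgeR adjusted p = 0.298), without any one vehicle library (edgeR adjusted p = 0.0517 to 0.153), with upper-quartile scaling (0.0544) and without mitochondrial genes (0.0506). The HSP90AB1 call in Paeonia was lost without either Paeonia replicate (edgeR adjusted p = 0.402 and 0.0544) and without vehicle replicate 2 or 3 (0.123 and 0.0787).

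Set against the mean of the other 6 extracts at 500 µg/mL, which crosses code prefixes, Astragalus had 8 of the 10 genes lower (37% of all genes were) and 1, DNAJB1 at 0.15, higher (37.7%); the DNAJB1 call (edgeR adjusted p = 0.045) was lost without Astragalus replicate 1 (0.08, edgeR adjusted p = 0.291) and without several other single libraries. Paeonia had 6 lower (18.5%). Cnidium and Cinnamon had 8 higher each (19.5% and 17.5%), and Angelica, Rehmannia and Sagunja-tang 6 each (15.9%, 12.6% and 13.6%). With Astragalus left out of the mean, an alternative chosen after seeing the data, Angelica, Rehmannia and Sagunja-tang had none called higher by edgeR, beside 3.66%, 0.857% and 4.74% of all genes, and Cinnamon 2, beside 5.76%. At these shares a count of 0 in 10 is near the background. At an unadjusted p below 0.05 Angelica and Rehmannia had 0 and Sagunja-tang 2, with the share of all genes at that p not counted.

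The comparison of 500 with 20 µg/mL within an extract uses no vehicle library and stays within one code prefix. In Astragalus, 8 of the 10 genes fell, beside 35.3% of all genes, and none rose, beside 34.2%. HSP90AA1 and HSPH1 had the largest falls of the 10 and HSP90AB1 the smallest of the 8, and DNAJB1 and BAG3 were not called. The median of the 10 genes was -1.10, against -0.02 for all genes, and all 8 were still called with any one Astragalus replicate left out.

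HSP90AA1 went from 1806, 1810 and 1757 CPM at 20 µg/mL through 1228, 1533 and 1543 at 100 to 231, 262 and 380 at 500. The highest library at 500 µg/mL was below every other library of the gene in that extract, and the log2 fold change of -2.62 ± 0.09 was a 6.15-fold fall (edgeR adjusted p = 4.07e-28). HSP90AB1 was at 2518, 2351 and 2324 CPM at 20 µg/mL and at 1502, 1699 and 1734 at 500. Its doses did not overlap either, and it fell 1.46-fold (log2 -0.54 ± 0.04, edgeR adjusted p = 4.17e-16). CHORDC1 went from 76.0, 74.1 and 72.8 CPM through 56.3, 58.2 and 52.5 to 22.0, 23.2 and 29.9, so that no dose overlapped another, and fell 2.95-fold (log2 -1.56 ± 0.07, edgeR adjusted p = 2.85e-24).

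HSPH1 went from 147, 132 and 127 CPM through 115, 120 and 112 to 34.7, 32.3 and 47.6, a 3.52-fold fall from 20 to 500 µg/mL (log2 -1.82 ± 0.08, edgeR adjusted p = 8.48e-24). BAG3, the other exchange factor, was at 49.4, 45.0 and 41.5 CPM at 20 µg/mL and at 48.7, 46.0 and 45.4 at 500. These BAG3 groups overlapped, and the log2 fold change was 0.04 ± 0.07 (edgeR adjusted p = 0.592). HSPA8 was at 1855, 1613 and 1704 CPM at 20, at 1760, 1667 and 1696 at 100 and at 689, 736 and 777 at 500 µg/mL. Its 2 lower doses overlapped, and the fall at the highest was 2.35-fold (log2 -1.23 ± 0.05, edgeR adjusted p = 1.03e-24), to below the vehicle libraries.

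HSPA1A was at 148, 117 and 122 CPM at 20 µg/mL and at 89.4, 80.4 and 75.8 at 500, where it lay between the levels at 20 µg/mL and those of vehicle. The log2 fold change was -0.66 ± 0.10 (edgeR adjusted p = 1.06e-07), that of HSPA1B was -0.96 ± 0.14 (edgeR adjusted p = 3.36e-08) and that of the summed pair -0.81 (edgeR adjusted p = 3.59e-09). Against vehicle, HSPA1A at 500 µg/mL was higher by 0.46 ± 0.10 (edgeR adjusted p = 8.68e-05), but the summed pair differed by only 0.10 and was not called (edgeR adjusted p = 0.409). DNAJA1 went from 295, 283 and 282 CPM to 101, 127 and 134, a 2.38-fold fall (log2 -1.25 ± 0.05, edgeR adjusted p = 5.87e-24). DNAJB1 was at 174, 136 and 140 CPM at 20 and at 165, 147 and 143 at 500 µg/mL. Its groups overlapped, with a log2 fold change of 0.01 ± 0.09 (edgeR adjusted p = 0.903), and in both it was replicate 1 that stood high, as in the Cinnamon libraries at 500 µg/mL, at 174, 138 and 133 CPM.

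**Figure D3:**
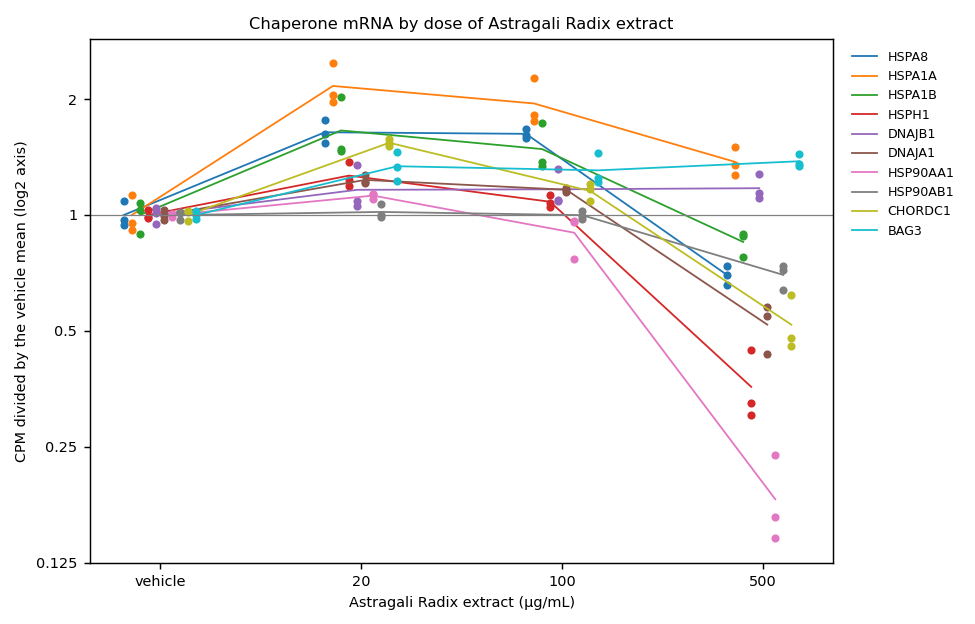
Level of each chaperone gene in the Astragalus libraries divided by the vehicle mean, on a log2 axis, at 20, 100 and 500 µg/mL; points are libraries (n = 3 a dose) and lines join the means. HSP90AA1 fell furthest at 500 µg/mL, while BAG3 and DNAJB1 stayed near their level at 20 µg/mL.

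The fall was in part present at 100 µg/mL. There 3 of the 10 genes were lower than at 20 µg/mL, beside 15.2% of all genes, and none was higher, beside 13.9%. CHORDC1 fell by 0.42 ± 0.06 (edgeR adjusted p = 9.88e-07), HSP90AA1 by 0.32 ± 0.08 (edgeR adjusted p = 0.00222) and HSPH1 by 0.23 ± 0.07 (edgeR adjusted p = 0.0184), the last not called without Astragalus replicate 1 (-0.16, edgeR adjusted p = 0.213). HSPA8, at -0.01, and HSP90AB1, at -0.03, were not called at this step. In the other 6 extracts none of the 10 genes was called between 100 and 20 µg/mL by edgeR, where 0.00599% of all genes were in Angelica and in Rehmannia, 0.18% in Cnidium, 0.0539% in Sagunja-tang and 0 in Paeonia and Cinnamon. DESeq2 called none of the 10 there, and 1, HSP90AB1 in Cnidium, had an unadjusted p below 0.05 by edgeR. How many of all genes did so was not counted.

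Against vehicle, 500 µg/mL Astragalus left HSP90AA1 5.48-fold lower (log2 -2.45 ± 0.09, edgeR adjusted p = 2.92e-27). HSPH1 differed by -1.47 ± 0.08, DNAJA1 by -0.95 ± 0.05, CHORDC1 by -0.94 ± 0.07, and HSPA8 and HSP90AB1 by -0.52 each. BAG3, at 0.46 ± 0.07, was higher than vehicle. DNAJB1, at 0.23 ± 0.09 (edgeR adjusted p = 0.0193), was called higher with all libraries but not without Astragalus replicate 1 (0.16, edgeR adjusted p = 0.0896) or without vehicle replicate 3 (0.19, edgeR adjusted p = 0.0835). Summed over the 10 genes, the level was 5692 ± 68.7 CPM in vehicle and 6869 ± 316, 6369 ± 125 and 3204 ± 238 CPM in Astragalus at 20, 100 and 500 µg/mL (SD, n = 3 each).

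Cnidium moved the other way. From 20 to 500 µg/mL 7 of the 10 genes rose, beside 9.56% of all genes, and none fell, beside 8.83%; the median was 0.22, against -0.0009 for all genes. HSPA8 went from 1784, 1642 and 1751 CPM to 2043, 2159 and 2018, without overlap, a rise of 0.26 ± 0.05 (edgeR adjusted p = 0.000104). CHORDC1 went from 74.5, 71.2 and 75.1 CPM to 91.3, 91.1 and 91.4, also without overlap, by 0.31 ± 0.06 (edgeR adjusted p = 0.000189). HSP90AB1 went from 2315, 2354 and 2291 CPM to 2634, 2610 and 2576, by 0.17 ± 0.04 (edgeR adjusted p = 0.00177). These 3 genes were called whichever Cnidium replicate was left out.

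The other 4 calls in Cnidium rested on more of the libraries: with a replicate left out, 3 or 4 of the 10 genes were called in all. HSPH1 rose by 0.27 ± 0.07 (edgeR adjusted p = 0.0065), HSPA1B by 0.42 ± 0.13 (edgeR adjusted p = 0.0205), HSP90AA1 by 0.23 ± 0.08 (edgeR adjusted p = 0.0459) and DNAJA1 by 0.15 ± 0.05 (edgeR adjusted p = 0.0367). HSPH1 went from 137, 138 and 135 CPM to 160, 171 and 165, and HSP90AA1 from 1808, 1800 and 1782 to 2044, 2183 and 2079. With upper-quartile scaling HSP90AA1 and DNAJA1 were not called (edgeR adjusted p = 0.109 and 0.144), nor was HSP90AA1 without mitochondrial genes (0.0511) or DNAJA1 without the filter on low counts (0.0992). HSPA1A, at 0.21 ± 0.10 (edgeR adjusted p = 0.14; the summed pair rose by 0.32 ± 0.10, edgeR adjusted p = 0.0234), and BAG3, at 0.17 ± 0.07 (edgeR adjusted p = 0.0691), did not pass, and DNAJB1 was at 0.04.

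In Paeonia, with 2 libraries a dose, 7 of the 10 genes fell from 20 to 500 µg/mL, beside 13.9% of all genes, and none rose, beside 16.8%; the median was -0.26, against 0.0033 for all genes. DNAJA1 went from 258 and 262 CPM to 198 and 205, by -0.37 ± 0.07 (edgeR adjusted p = 1.96e-05). HSP90AA1 went from 1599 and 1606 CPM to 1235 and 1249, by -0.37 ± 0.10 (edgeR adjusted p = 0.00378). HSPA8 went from 1596 and 1549 CPM to 1332 and 1358, by -0.23 ± 0.06 (edgeR adjusted p = 0.00384). None of these groups overlapped, which says little with 2 libraries a dose. In Sagunja-tang, also with 2 libraries a dose, genes of the 10 could be without overlap between these doses and yet none was called.

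The other falls in Paeonia were CHORDC1 at -0.30 ± 0.08 (edgeR adjusted p = 0.00251), HSP90AB1 at -0.16 ± 0.05 (edgeR adjusted p = 0.0119), HSPA1B at -0.47 ± 0.17 (edgeR adjusted p = 0.0259) and HSPA1A at -0.33 ± 0.12 (edgeR adjusted p = 0.0295). The summed pair was at -0.40 ± 0.13 (edgeR adjusted p = 0.0129). HSPH1, at -0.15 ± 0.09 (edgeR adjusted p = 0.238), was not called, nor was BAG3 at 0.15 ± 0.08 (edgeR adjusted p = 0.174) or DNAJB1 at 0.02. Without Paeonia replicate 2 or 3 only 1 or 2 genes were called: DNAJA1 in both cases, and HSPA8 without replicate 3. In each such fit the lone library at a dose is assumed to vary like the other groups. The mitochondrial share moved with dose here too, to 20.9% ± 1.70 at 500 µg/mL (SD, n = 2) from 17.6% at 20, and its part in the result was not tested beyond the fit without mitochondrial genes, which left the number of genes called within 1.5 times.

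None of the 10 genes was called between 500 and 20 µg/mL by edgeR in Angelica, Rehmannia, Cinnamon or Sagunja-tang, where 0.443%, 0.785%, 0.264% and 5.7% of all genes were higher and 0.611%, 0.623%, 0.545% and 4.73% lower. DESeq2 called none either, and at an unadjusted p below 0.05 edgeR gave 1, 0, 2 and 3 of the 10. The share of all genes at that unadjusted p was not counted, so these counts have no background. When Sagunja-tang was fitted with vehicle alone, 3 of the 10 genes were called higher. The number of all genes called higher there stayed within 1.5 times the 951 (5.7%) of the main fit. In Samul-tang, HSPA8 was at 1597, 1652 and 1688 CPM and HSP90AA1 at 1675, 1720 and 1753 CPM at 20, 100 and 500 µg/mL, in single libraries.

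**Figure D4:**
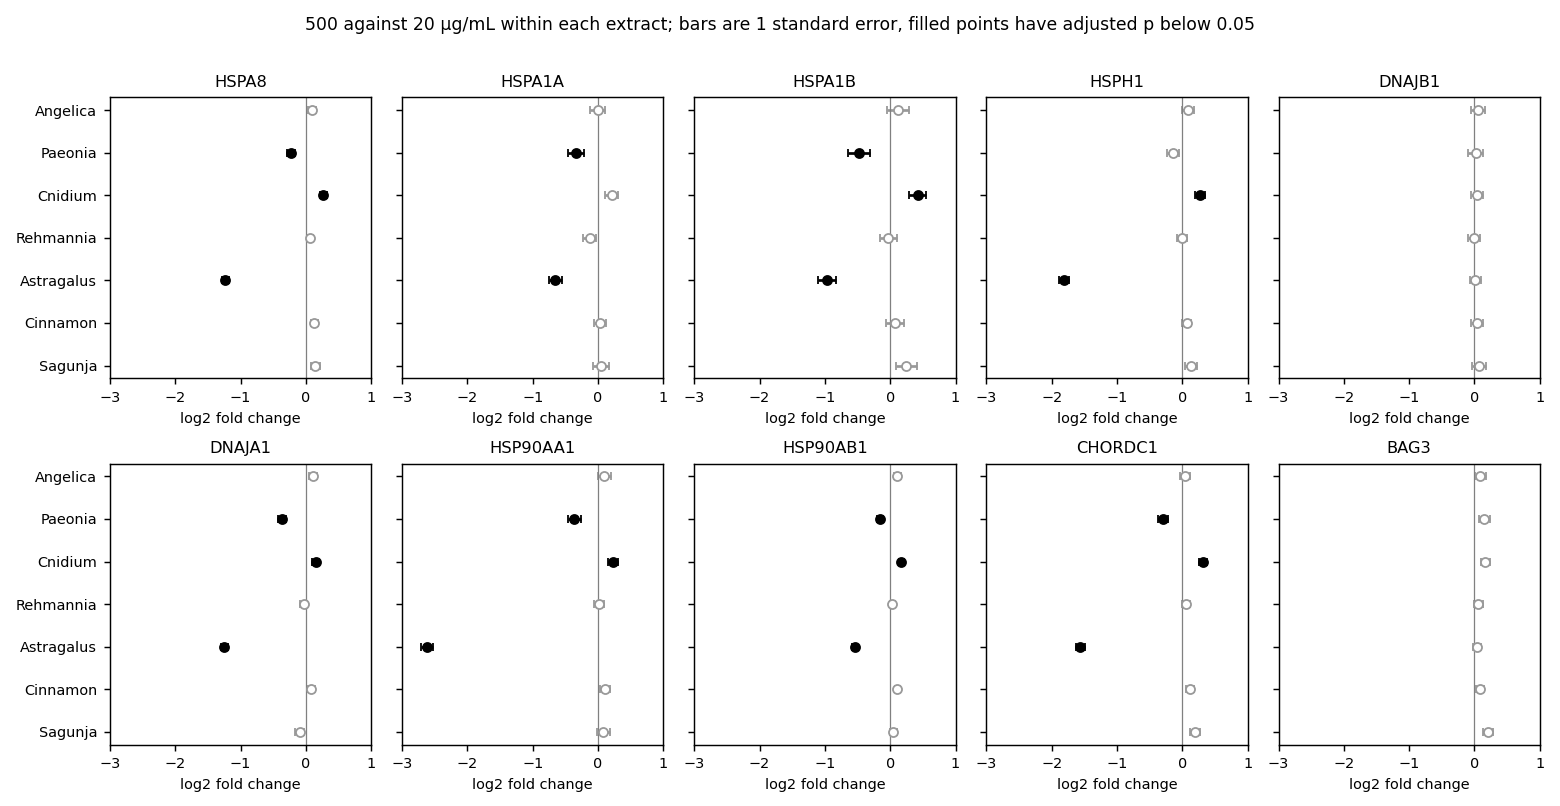
Log2 fold change of 500 against 20 µg/mL of each chaperone gene in each of the 7 replicated extracts, with bars of 1 SE; filled points passed an edgeR adjusted p below 0.05. Astragalus held 8 lower genes, Paeonia 7 lower, Cnidium 7 higher, and the other 4 extracts none.

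Whether the dose response of one extract differed from the others was tested as the change from 20 to 500 µg/mL against the mean change of the other 6 extracts. In Astragalus 8 of the 10 genes changed to lower levels than in the others (32.7% of all genes did, and 32.1% to higher), HSP90AA1 by -2.65 ± 0.09 (edgeR adjusted p = 8.56e-27) and HSPH1 by -1.88. DNAJB1, at -0.02, and BAG3, at -0.09, were not called. In Cnidium 8 changed to higher levels, beside 12.1% of all genes, and in Paeonia 2 to lower ones, beside 9.54%. The mean of the others includes the large Astragalus falls in each comparison but its own. With Astragalus left out of that mean, an alternative chosen after seeing the data, Cnidium had 4 higher genes beside 3.14% of all genes, HSPA8 at 0.22, HSP90AB1 at 0.14, DNAJA1 at 0.21 and CHORDC1 at 0.29, and Paeonia had 8 lower beside 14.1%. Angelica, Rehmannia, Cinnamon and Sagunja-tang, with 6, 4, 6 and 4 higher genes against the mean of all others (5.62%, 5.82%, 9.4% and 4.82% of all genes), then had none called higher by edgeR, beside 0.228%, 0.186%, 0.779% and 0.551% of all genes, and 1, 0, 1 and 0 at an unadjusted p below 0.05. So few genes of any kind were called that a count of 0 in 10 is the background. For the counts at an unadjusted p, no share of all genes was taken.

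The profiles of the genes were compared over the 25 groups. The Pearson correlation of a gene's log2 CPM with the mean standardised profile of the others, HSPA1A and HSPA1B entering as their sum, was 0.97 for HSPA8, 0.95 for CHORDC1, 0.91 for DNAJA1 and 0.90 for HSPH1. It was 0.17 for BAG3 and -0.06 for DNAJB1, but 0.39 and 0.47 over the 24 groups without Astragalus at 500 µg/mL. These low values thus rest in part on that group. Both genes stayed lowest without it, as the other genes then lay between 0.71 and 0.94. HSPH1 and HSP90AA1 correlated at 0.99, and at 0.89 without Astragalus at 500 µg/mL; HSPA8 and HSP90AA1 at 0.88, and at 0.66 without it. These are descriptions over 25 group means that share a vehicle and code prefixes. Outside the 10, the genes whose profile was most like theirs were BCAS2 (r = 0.94), TTC1 (0.94), MANF (0.94), NPM1 (0.94), SRP19 (0.93), TARDBP (0.93), SRP68 (0.93) and NOL7 (0.93). These 8 were chosen over groups that include Astragalus at 500 µg/mL, so a fall there follows from the choice and is no separate result. From 20 to 500 µg/mL Astragalus they fell by between 0.55 and 0.93 on the log2 scale. Among the 10 chaperone genes HSPA8, at -1.23, fell further and HSP90AB1, at -0.54, less far.

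The other genes of the pathway were described by lists. Some genes, such as STIP1, AHSA1, FKBP4, HSPA4, TCP1 and HSPD1, are on 2 lists, so the counts of different lists are not independent. Counts in Astragalus are to be read against the 34.2% of all genes called higher and 35.3% called lower there. The list of heat shock factors also holds HSBP1 and HSF2BP, which bind such factors and are not factors themselves. On this list 2 of 5 genes, HSF1 and HSBP1, rose and 2, HSF2 and HSF4, fell from 20 to 500 µg/mL Astragalus. HSF1 itself was at 67.1, 64.2 and 64.7 CPM at 20 and at 123, 112 and 109 at 500 µg/mL, a rise of 0.81 ± 0.05 without overlap. HSF2, a related factor, fell by 0.87 ± 0.08, from 21.4, 19.1 and 19.9 CPM to 9.72, 10.9 and 12.2. Of 24 other genes known to be induced through HSF1, 7 rose and 9 fell, with a median of -0.09 against -0.02 for all genes, shares close to those of all genes. HSPA6 was listed with them but was not among the genes tested. HSPA4L, an HSP110 relative of HSPH1, fell by 1.52 ± 0.07, and STIP1, which bridges HSP70 and HSP90, by 1.09 ± 0.05. Among the rises, DNAJB2 was at 0.71 ± 0.05. HSPB8 and CRYAB rose more, by 2.62 ± 0.29 and 2.04 ± 0.28, but had means below 5 CPM at both doses.

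On a list of 19 genes drawn up as HSP90 cochaperones 7 rose and 7 fell in the same comparison (median 0.04). These counts were again close to the shares of all genes. Among them were AHSA2P, by its symbol a pseudogene, at -2.48 ± 0.11, RPAP3 at -1.88 ± 0.09 and FKBP8 at 1.15 ± 0.07. The list also holds ITGB1BP1, which is not an HSP90 cochaperone and was among the 7 that rose (0.48 ± 0.06). Of 18 HSP70 cofactors 5 rose and 12 fell (median -0.29); DNAJC2, a J-domain protein of the ribosome, fell by 2.81 ± 0.14, from a mean of 45.9 to 6.35 CPM. The chaperonin and prefoldin list had 4 of 14 higher and 6 lower, and the mitochondrial chaperones and proteases 6 of 13 each way. The list of the endoplasmic reticulum had 2 of 18 higher and 15 lower, with a median of -0.44. HSP90B1, the HSP90 of that compartment, fell by 2.07 ± 0.08, from a mean of 1204 to 286 CPM, and HSPA5, its HSP70, by 1.26 ± 0.04, from 1043 to 434. Of 25 proteasome subunits 15 rose and 5 fell (median 0.32), with PSMD2 at 0.87 and PSMA4 at -0.76.

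In Cnidium, where 9.56% of all genes were called higher and 8.83% lower, most lists held more rises than falls from 20 to 500 µg/mL. Of the other HSF1-induced genes 10 of 24 rose and 1 fell (median 0.17, against -0.0009 for all genes), with DNAJB4, a J-domain protein, at 0.79 ± 0.08 and HSPB1, a small heat shock protein, as the gene that fell, at -0.31. On the HSP90 cochaperone list 9 of 19 rose, ITGB1BP1 among them, and of the HSP70 cofactors 5 of 18. The chaperonin and prefoldin list had 9 of 14 higher, the mitochondrial list 6 of 13 and the proteasome list 17 of 25. None of these lists held a fall. The rises of STIP1, AHSA1, FKBP4, HSPA4, TCP1 and HSPD1 each count on more than 1 list. The endoplasmic reticulum list had 3 higher and 4 lower. In Paeonia, beside 16.8% of all genes higher and 13.9% lower, 6 of the 24 HSF1-induced genes rose and 9 fell (median -0.08), and on the endoplasmic reticulum list HSPA5 fell by 0.53 and HSP90B1 by 0.43 while DNAJB9 rose by 0.57.

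At 20 µg/mL, over the 7 extracts against vehicle, where 15.5% of all genes were called higher and 16.8% lower, 11 of the 24 other HSF1-induced genes were higher and 1 lower (median 0.13, against -0.01), with DNAJB4 at 0.64 and DEDD2 at 0.30. The endoplasmic reticulum list had 14 of 18 higher and none lower (median 0.15), HERPUD1 at 0.44 and DNAJB9 at 0.42 among them. The proteasome list went the other way, with 2 of 25 higher and 16 lower (median -0.15), PSMA7 at -0.38. HSF1 was higher by 0.22 and HSF2 lower, at -0.15.

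**Figure D5:**
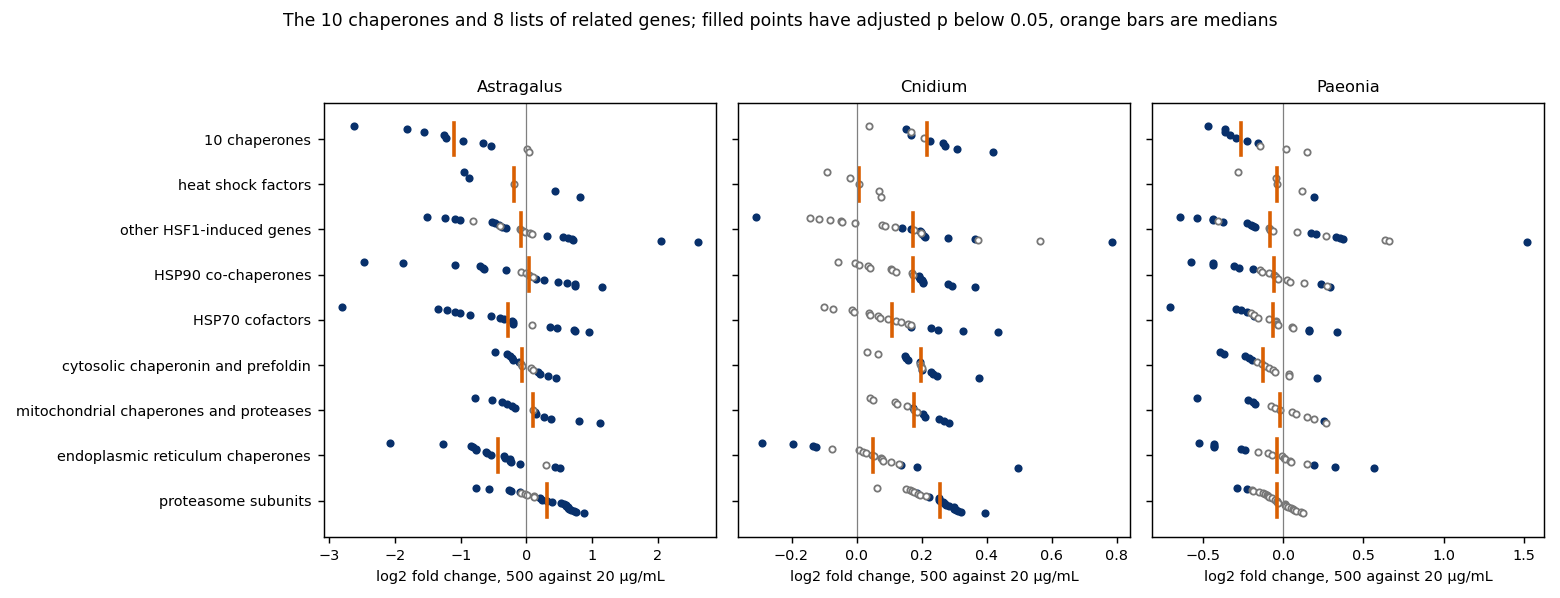
Log2 fold change of 500 against 20 µg/mL for the 10 chaperone genes and the 8 related lists in Astragalus, Cnidium and Paeonia; each point is a gene, filled where the edgeR adjusted p was below 0.05, and the orange bar is the list's median. The horizontal scales differ between the panels; the chaperone medians were -1.10, 0.22 and -0.26.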

How the data were processed

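RNA with an integrity number above 7 was made into directional libraries and sequenced with paired 100 bp reads, per the labels' protocols. The submitters' processing notes name RSEM (1.3.3), STAR (2.7.3a), FastQC (0.11.9), Trim Galore (0.6.5) and GRCh38; the annotation release is not given in the sources used here. The authors deposited RSEM expected counts per Ensembl gene, and 8.21% of the values used were not whole. The table also held 210 columns of other samples, which were not used.

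The expected counts were rounded. All 60 libraries entered 1 fit with edgeR 4.0.16 (R 4.3.3) on 16692 genes kept by filterByExpr, with TMM scaling and the quasi-likelihood test, two-sided, Benjamini-Hochberg adjusted over all genes within each of 50 contrasts and called below 0.05. The script was checked on simulated counts. CPM are on TMM-scaled library sizes, with factors from 0.7844 to 1.1024. With CPM on raw library totals, 137 of the gene and group means stayed within 1 SD. The other 113 moved further or, in Samul-tang, had no SD. Depth ran from 21485882 to 34643028 counts. Symbols and positions came from GENCODE 29, which matched 57055 identifiers. The 48 replicate pairs all differed by more than sampling noise.

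All 10 chaperone genes are named. From each of 8 lists, examples are taken from the 3 called genes with the largest fold change and at least 5 CPM in the higher group. A few others are named to describe a list, and a gene may be on more than 1 list. Like genes are the 8 with the highest correlation to the chaperones. The genes and lists were chosen with earlier results of these data known. Alternatives were DESeq2 1.42.0, upper-quartile scaling, no filter on low counts, mitochondrial genes removed, HSPA1A and HSPA1B summed, a replicate block, smaller fits and each replicate left out. Samul-tang, with 1 library a dose, entered no contrast.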

Additional observations from a re-analysis of the deposited data

Results flagged for a closer look

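The change from 20 to 500 µg/mL differed from the mean change of the other 6 extracts, by the edgeR test of that difference, in 38 cases (log2). In Astragalus these were HSPA8 at -1.31, HSPA1A at -0.63, HSPA1B at -1.02, HSPH1 at -1.88, HSP90AA1 at -2.65, HSP90AB1 at -0.60, DNAJA1 at -1.22 and CHORDC1 at -1.63. In Cnidium they were HSPA8 at 0.44, HSPA1A at 0.38, HSPA1B at 0.59, HSPH1 at 0.56, HSP90AA1 at 0.68, HSP90AB1 at 0.23, DNAJA1 at 0.41 and CHORDC1 at 0.55, and in Paeonia HSP90AB1 at -0.14 and DNAJA1 at -0.19.

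In Angelica they were HSPA8 at 0.23, HSPH1 at 0.33, HSP90AA1 at 0.52, HSP90AB1 at 0.17, DNAJA1 at 0.36 and CHORDC1 at 0.24. In Cinnamon they were HSPA8 at 0.28, HSPH1 at 0.31, HSP90AA1 at 0.54, HSP90AB1 at 0.16, DNAJA1 at 0.33 and CHORDC1 at 0.32. In Rehmannia they were HSPA8 at 0.20, HSP90AA1 at 0.43, DNAJA1 at 0.20 and CHORDC1 at 0.26, and in Sagunja-tang HSPA8 at 0.30, HSPH1 at 0.39, HSP90AA1 at 0.50 and CHORDC1 at 0.41. None of these 20 was called by edgeR once Astragalus was left out of the mean.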

How the results depend on the processing

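Without a filter on low counts, the genes called lower than vehicle at 100 µg/mL went from 1 to 0 in Paeonia and from 0 to 1 in Astragalus, and those higher at 500 than at 20 µg/mL from 0 to 1 in Sagunja-tang. With only vehicle and the extract in the fit, Paeonia at 100 µg/mL went from 1 to 0 and Sagunja-tang from 0 to 3. With Astragalus left out of the mean of the other extracts, the higher genes at 500 µg/mL went from 6 to 0 in Angelica, Rehmannia and Sagunja-tang and from 8 to 2 in Cinnamon; those with a higher change went from 6 to 0 in Angelica and Cinnamon, 4 to 0 in Rehmannia and Sagunja-tang and 8 to 4 in Cnidium, and those with a lower change from 2 to 8 in Paeonia. Reversed there were, at 500 µg/mL, HSPH1 (-0.0515) and CHORDC1 (-0.0171) in Angelica, HSPA8 (-0.0036), HSPH1 (-0.0424) and CHORDC1 (-0.0477) in Rehmannia and DNAJA1 (-0.0468) in Sagunja-tang, and, for the change, CHORDC1 (-0.0286) in Angelica and HSPA8 (-0.0158), HSP90AA1 (-0.0157), DNAJA1 (-0.0085) and CHORDC1 (-0.0157) in Rehmannia; none passed the test.

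With a replicate left out, the number of genes higher than vehicle ran from 4 to 6 in Angelica at 100 µg/mL, 3 to 6 in Paeonia at 20 and 4 to 7 in Sagunja-tang at 100 and at 20, and of lower ones from 0 to 1 in Paeonia and Astragalus at 100. For 500 against 20 µg/mL it ran from 1 to 2 lower in Paeonia and 3 to 4 higher in Cnidium. At 500 µg/mL against the other extracts it ran from 3 to 6 higher in Angelica and 0 to 1 in Astragalus; for the change, from 1 to 6 in Angelica, 1 to 5 in Rehmannia, 0 to 4 in Sagunja-tang and 0 to 3 lower in Paeonia.

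Under DESeq2, upper-quartile scaling, removed mitochondrial genes and the summed pair, all 100 counts of chaperone genes stayed within 1.5 times. Counts over all genes moved by more in 16 of 100 without a filter (Rehmannia at 500 against 20 µg/mL, 131 to 278 higher) and 9 under DESeq2 (Angelica, 74 to 113), mostly where few genes were called, and in 14 of 56 with smaller fits (Sagunja-tang at 20 µg/mL against vehicle, 1068 to 1940 higher; Astragalus, 1173 to 736). Same-numbered libraries did not deviate together between vehicle and extracts (mean r = 0.0042 over 54 pairs). Within a code prefix they did so weakly, at 0.10 over 126 pairs, beside -0.06 over 216 other-numbered pairs. The same-numbered pairs there ran from -0.44 to 0.60, and the numbers were not taken as pairs. The replicate block ended 1 call, DNAJA1 in Paeonia at 20 µg/mL against vehicle (0.16, edgeR adjusted p = 0.066), and the block within a code prefix 5, among them HSP90AA1 (0.22, edgeR adjusted p = 0.0523) and DNAJA1 (0.14, edgeR adjusted p = 0.0675) in Cnidium at 500 against 20. Groups of 1 or 2 libraries limit what small changes could be seen.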
